A study of Homo sapiens with 8 samples.

Results

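Chemokines, interleukins and their receptors were followed in MP38 cells, a BAP1-mutant uveal melanoma (UM) cell line. The members were the rows of the count table whose gene symbol has the form of a CXC, CC or CX3C chemokine, a CXC or CC chemokine receptor, an interleukin or an interleukin receptor, which gave 134 of 35238 rows. The drugs, given over 24 h from stocks in DMSO, were romidepsin at 40 nM, quisinostat at 40 nM and mivebresib at 1200 nM, and control cells received 0.1% DMSO. Each of the 4 groups held 2 bulk RNA-seq libraries from separate wells of the same line, so the 8 libraries stand for 1 tumor genotype and p values measure the spread between wells. Romidepsin and quisinostat are HDAC (histone deacetylase) inhibitors, while mivebresib is a BET bromodomain inhibitor. Among the members were 39 chemokines, 16 chemokine receptors, 38 interleukins and 35 interleukin receptors, and the symbols also took in 2 receptor antagonists and 4 receptor pseudogenes.

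Chemokines are small secreted proteins that bind G-protein-coupled receptors and direct the migration of leukocytes and of some tumor cells. Interleukins are secreted cytokines whose receptors signal mainly through JAK kinases and STAT factors or, for the IL1 and IL17 families, through adaptors that activate NF-κB. Tumor cells make some of these ligands themselves, and many of the genes are inducible, with NF-κB, AP-1 or STAT sites near their start. HDACs remove acetyl groups from histones and BET proteins bind acetylated histones, so both kinds of drug act on the reading of inducible promoters and enhancers.

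Most members were scarcely detected in MP38 cells. No count was found in any library for 34 members, the highest count of 58 others was between 1 and 19, and 42 reached at least 20 counts in a library. These 42 are the members named here: 10 chemokines, 2 chemokine receptors, 10 interleukins and 20 interleukin receptors. A filter on low counts left 48 members for testing, the 42 and 6 with fewer counts. Of these 48, 34 passed the filter's cutoff in all 4 groups, 0 did so in 1 group only, and the rest passed in 2 or 3 groups. IL1A and IL31RA passed only with the HDAC inhibitors and IL10RA only with quisinostat and mivebresib. CCL2, CXCL10, CXCL11 and IL6 passed in every group but mivebresib. Such members entered the test through the groups where they are high, and the counts of members that rose or fell include them.

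Total counts per library ran from 28483235 to 29359024. Replicates differed by more than counting error in every group, with a chi-square per degree of freedom of 58.1 in the control and 9.52 to 9.79 in the drug groups, so the control libraries weigh on each comparison with it. The cells carried melanocytic transcripts, TYRP1 with up to 112687 counts, although DCT did not exceed 5. Of the T and NK cell markers, CD3D and CD3E had 0 counts in all libraries and KLRD1 up to 71. Among the myeloid markers, AIF1 had 0 counts in all libraries and PTPRC, common to leukocytes, did not exceed 11, but CD68, a lysosomal protein, had 1699 to 2307. The B cell marker CD79B did not exceed 23 counts.

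Levels between genes were compared as CPM, counts normalized to library size, per kilobase of exon. In the control, IL13RA1, the receptor chain that pairs with IL4R, was highest at 28.8 ± 5.5 CPM per kilobase (SD, n = 2). CCL28, a mucosal chemokine and ligand of CCR10, followed at 14.8 ± 1.5, and the cytokine IL32 at 13.8 ± 2.29, so CCL28 and IL32 did not differ beyond their spread. IL7R, the receptor chain for IL7 and TSLP, had 9.08 ± 2.3. IL4R at 5.62 ± 1.38, IL10RB, the shared chain of several IL10-family receptors, at 5.3 ± 1.34, and CXCL16, a membrane-anchored chemokine, at 4.94 ± 0.253 overlapped in level. IL17RC at 4.48 ± 0.14 and IL17RA at 3.41 ± 0.783, which form the receptor for IL17A, and CXCL8, which recruits neutrophils, with 3.23 ± 0.205 were the other members among the 10 highest over all libraries. In the control alone, CCL2 at 4.15 ± 0.563, IL6R at 3.89 ± 0.701 and CCL5 at 3.87 ± 0.758 had higher means than IL17RA and CXCL8. IL10RB shares 38.1% of its exon length with a readthrough gene on the same strand, so its counts are uncertain.

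**Figure D1:**
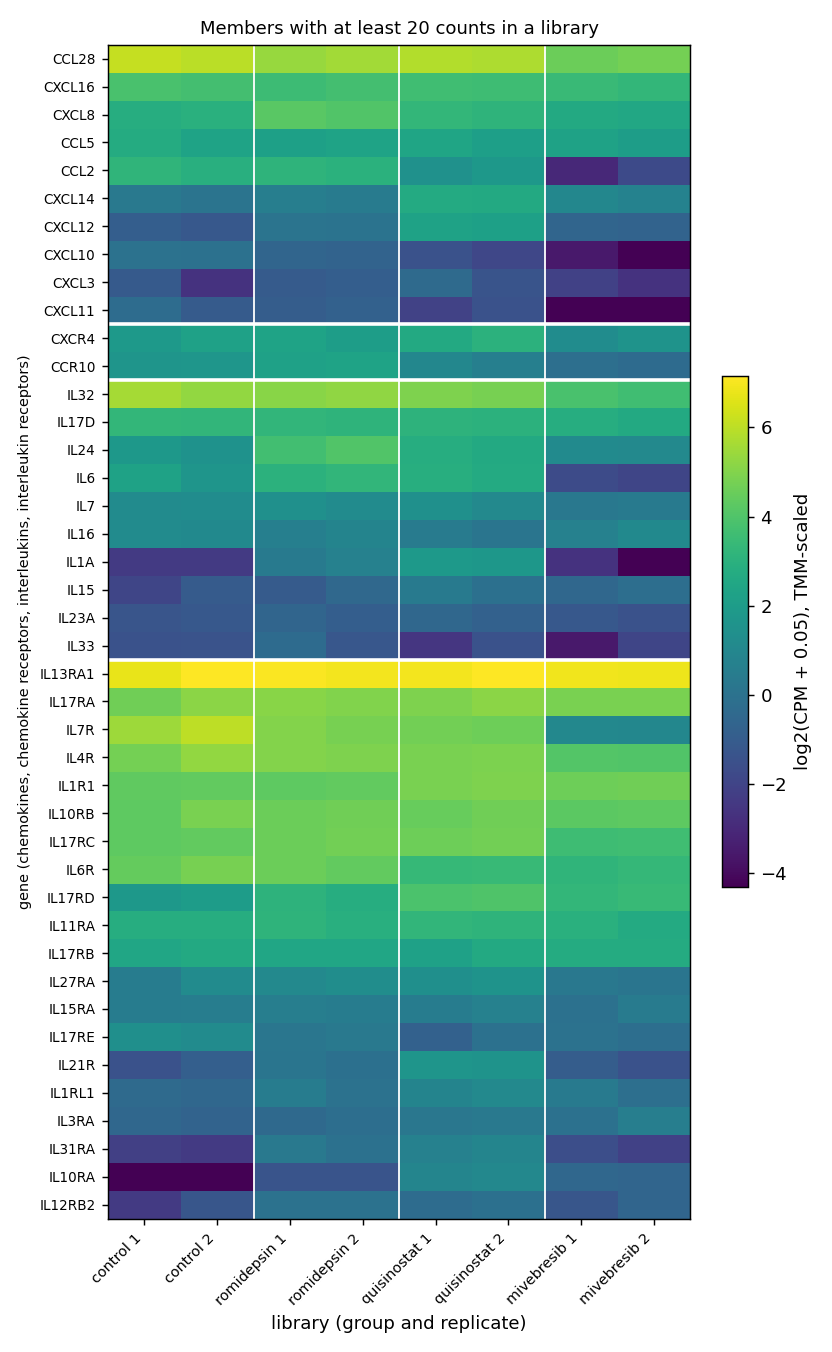
Level of the 42 members with at least 20 counts in a library, as log2(CPM + 0.05) with TMM scaling. Each row is a gene, ordered within chemokines, chemokine receptors, interleukins and interleukin receptors by mean level, and each column is a library of the 4 groups. CCL2, CXCL10, CXCL11, IL6 and IL7R are darkest in both mivebresib libraries, while CXCL12, CXCL14, IL1A, IL21R and IL31RA are brightest in both quisinostat libraries.

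The drugs were set against the control with the quasi-likelihood test of edgeR, fitted to the 8 libraries together, and rose or fell is used for a Benjamini-Hochberg adjusted p below 0.05 over 15085 genes. With romidepsin, 13 of the 48 tested members rose and 3 fell, against 15.2% and 15.8% of all genes. With quisinostat, 18 rose and 8 fell, against 28% and 25.1%. With mivebresib, 5 rose and 15 fell, against 22.2% and 24.1%. The median log2 FC over the tested members was 0.15 with romidepsin, 0.22 with quisinostat and -0.41 with mivebresib, where that of all genes was -0.012, -0.004 and 0.007. Putting the genes with 0 counts in a group at the bound that 3 counts per library allow did not move these medians. The 3 comparisons share the control libraries, which differed most from each other, while the groups share 1 estimate of the spread. Their p values may therefore be too small. In fits of only the 4 libraries compared, 10.1% of all genes rose and 7.9% fell with romidepsin. With quisinostat these shares were 25.5% and 19.6%, and with mivebresib 17.7% and 20%. The members that rose include, with romidepsin and with quisinostat, 1 that stayed under 20 counts.

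The study's further threshold of a log2 FC beyond 1.5 left 6 members up and 0 down with romidepsin, against 3.77% and 0.312% of all genes. It left 10 up and 2 down with quisinostat, against 11.2% and 1.03%, and 1 up and 7 down with mivebresib, against 3.96% and 4.36%. When libraries were scaled by their size alone, 37.3% of all genes were higher and 14.2% lower with quisinostat, and 18.5% and 11.3% with romidepsin, while 20 and 8 members were called with quisinostat and 13 and 3 with romidepsin. Without romidepsin replicate 1, 7 members rose with romidepsin, and the share of all genes that rose was 7.72%. Fewer members rose with mivebresib whichever library was left out. A smaller share of all genes rose in those fits too, except without control replicate 2, where the share was larger.

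**Figure D2:**
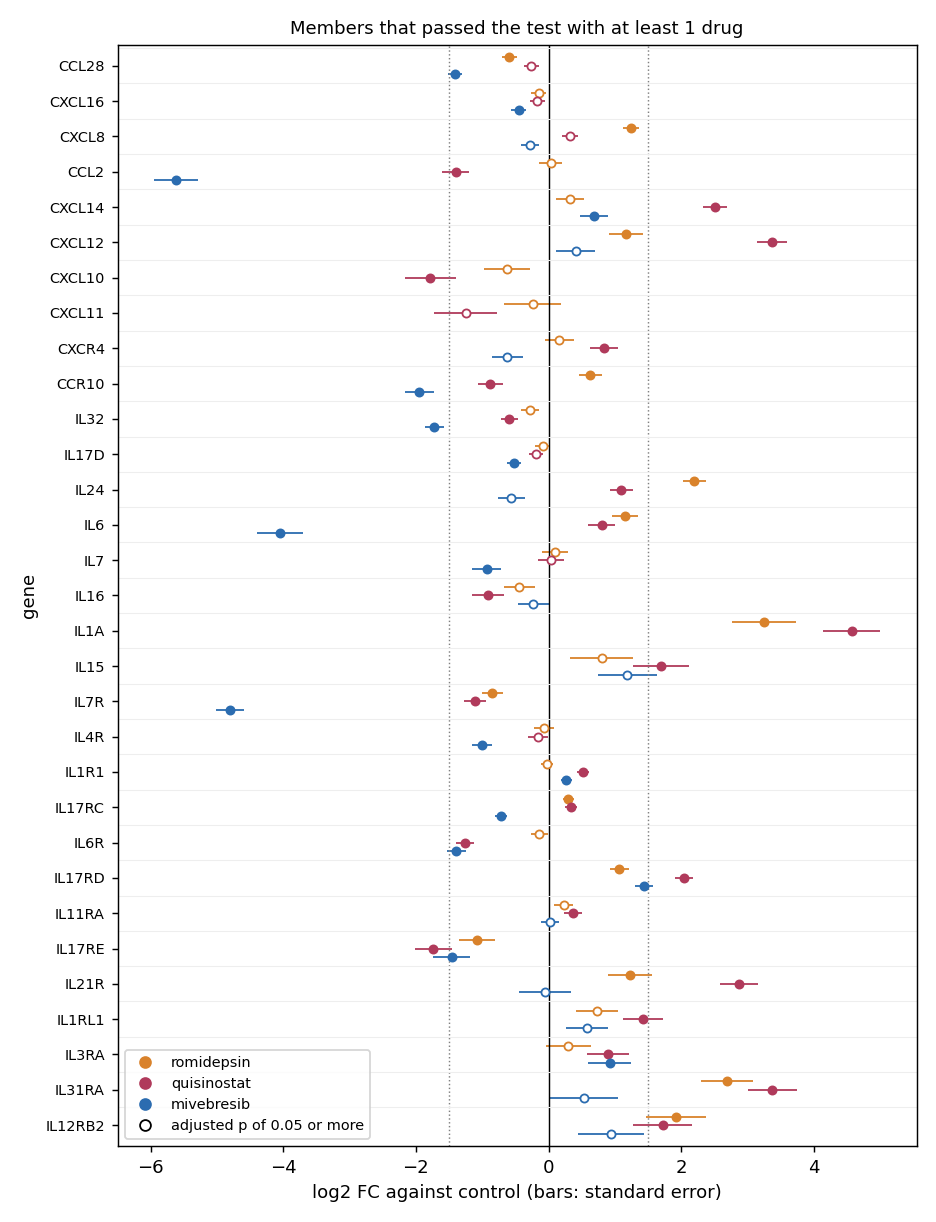
Log2 FC against the control for the 31 members that passed the test with at least 1 drug and could be plotted. Points are fitted values with bars of 1 standard error, filled where adjusted p was below 0.05, colored by drug, and dotted lines mark a log2 FC of 1.5 either way. Values against a group with at most 3 counts in each library are not drawn, which removes IL10RA and the mivebresib values of CXCL10, CXCL11 and IL1A. CCL2, IL7R and IL6 lie farthest to the left with mivebresib, and IL1A, IL31RA and CXCL12 farthest to the right with quisinostat.

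With mivebresib the inflammatory ligands CCL2, CXCL10, CXCL11 and IL6 fell to between 0 and 7 counts per library, and the receptor IL7R fell with them. CCL2 (chr17:34255218-34257203, plus strand, GRCh38), which attracts monocytes, had 255 and 204 counts in the control libraries, 256 and 235 with romidepsin, 88 and 108 with quisinostat, and 2 and 7 with mivebresib. The mivebresib libraries lay far below all others, and CCL2 fell by 5.62 on the log2 scale (SE 0.33, adjusted p = 7.04e-06). Its fitted log2 FC was -5.01 without mivebresib replicate 1 and -6.74 without mivebresib replicate 2. CXCL10 and CXCL11 are interferon-inducible chemokines that share the receptor CXCR3, and they are neighbors on chromosome 4, 10184 bp apart on the same strand. CXCL10 had 27 and 25 counts in the control, 18 and 17 with romidepsin, 10 and 7 with quisinostat, and 1 and 0 with mivebresib. Its level relative to the control was 51.6-fold lower with mivebresib, with a 95% counting interval of 8.86 to 2080 (adjusted p = 0.000275). CXCL11 had 22 and 12 counts in the control, 14 and 16 with romidepsin, 6 and 10 with quisinostat, and 0 in both mivebresib libraries, at least 5.62-fold lower (adjusted p = 0.00144). Counting intervals and bounds cover counting error only.

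Of the interleukins, IL6 (chr7:22725884-22732002, plus strand), a pleiotropic inflammatory cytokine, had 136 and 85 counts in the control, 238 and 274 with romidepsin, 233 and 201 with quisinostat, and 7 and 6 with mivebresib. Its log2 FC with mivebresib was -4.05 (SE 0.35, adjusted p = 4.24e-05). IL32 went from 1398 and 1071 counts to 397 and 343, a log2 FC of -1.72 (SE 0.14, adjusted p = 3.39e-05), while romidepsin gave 999 and 1123 and quisinostat 970 and 879. IL7, a growth factor of lymphocytes, and IL17D fell by less, by 0.93 and 0.52 on the log2 scale (adjusted p = 0.00884 and 0.00548). A gene on the opposite strand, ZC2HC1A, covers 9.49% of the exon length of IL7 and moved the other way, with a log2 FC of 1.22. Antisense genes that were not tested cover 39% of the exon length of IL17D and 20.7% of that of IL6. Of the 12 tested interleukins, 4 fell with mivebresib and 0 rose by edgeR, against 24.1% and 22.2% of all genes.

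Among the receptors, IL7R showed the largest fall. It had 1277 and 1778 counts in the control, 954 and 822 with romidepsin, 819 and 783 with quisinostat, and 55 and 54 with mivebresib. All 6 drug libraries lay below both control libraries, and the log2 FC with mivebresib was -4.80 (SE 0.21, adjusted p = 2.3e-06). CCR10, a receptor for CCL28, had 89 and 87 counts in the control, 138 and 147 with romidepsin, 61 and 47 with quisinostat, and 24 and 21 with mivebresib, where the log2 FC was -1.95 (SE 0.22, adjusted p = 0.000161). CNTNAP1, which covers 14.5% of the exon length of CCR10 on the opposite strand, also fell with mivebresib, by 0.92 on the log2 scale (adjusted p = 0.00251), and its part in the result was not tested. The interleukin receptors IL6R, IL17RE, IL4R and IL17RC fell by 1.39, 1.46, 1.00 and 0.72 on the log2 scale (adjusted p between 9.22e-05 and 0.00311). In bulk samples, fewer cells of a type and less RNA per cell cannot be told apart.

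CCL28 and CXCL16 also fell with mivebresib, by 1.41 and 0.45 on the log2 scale (adjusted p = 2.7e-05 and 0.0123). Of the 13 tested chemokines, 5 fell and 1 rose, against 24.1% and 22.2% of all genes. The one that rose was CXCL14, with 34 and 28 counts in the control and 53 and 46 with mivebresib (log2 FC 0.69, SE 0.21, adjusted p = 0.0245). The receptors that rose were IL10RA, IL17RD, IL1R1 and IL3RA. IL17RD, an atypical receptor that also restrains FGF signaling, went from 98 and 110 counts to 268 and 293, a log2 FC of 1.44 (SE 0.14, adjusted p = 8.7e-05). IL1R1 and IL3RA rose by 0.27 and 0.92 on the log2 scale (adjusted p = 0.0322 and 0.044). The calls of CXCL14, IL1R1 and IL3RA were lost when any of several libraries was left out, with adjusted p up to 0.115, 0.138 and 0.274, and in DESeq2. That of CXCL16 was lost without mivebresib replicate 2 (adjusted p = 0.0869). Of the melanocytic markers tested, 5 of 7 fell with mivebresib, including SOX10, from 6109 and 5527 counts to 1564 and 1468, and their part in these results was not tested.

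The sequences around the start of 4 genes that fell with mivebresib are shown for the motifs they hold. They are RefSeq promoters on GRCh38.p14, 250 bases before to 50 after the annotated start, and 34 of the 42 members had one. Both strands were searched for an NF-κB motif, the AP-1 motif TGANTCA, the STAT motif TTCNNNGAA, the TATA box TATAAA and the interferon-response motif GAAANNGAAA, and capitals mark matches. No match overlapped one of another motif in the promoters shown.
CXCL10, chr4:76023448-76023747, minus strand: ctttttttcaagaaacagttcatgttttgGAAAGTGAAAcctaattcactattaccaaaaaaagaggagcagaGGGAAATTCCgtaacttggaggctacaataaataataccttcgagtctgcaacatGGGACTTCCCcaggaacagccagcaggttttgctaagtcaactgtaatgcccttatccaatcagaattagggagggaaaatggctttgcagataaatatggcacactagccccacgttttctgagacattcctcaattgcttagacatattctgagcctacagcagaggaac
CXCL11, chr4:76036021-76036320, minus strand: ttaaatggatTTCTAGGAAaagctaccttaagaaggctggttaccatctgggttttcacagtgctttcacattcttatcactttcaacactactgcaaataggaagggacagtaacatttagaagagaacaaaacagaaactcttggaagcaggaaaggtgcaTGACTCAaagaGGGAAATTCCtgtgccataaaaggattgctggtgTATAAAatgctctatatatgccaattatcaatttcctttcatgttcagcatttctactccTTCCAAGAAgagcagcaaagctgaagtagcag
IL6, chr7:22726950-22727249, plus strand: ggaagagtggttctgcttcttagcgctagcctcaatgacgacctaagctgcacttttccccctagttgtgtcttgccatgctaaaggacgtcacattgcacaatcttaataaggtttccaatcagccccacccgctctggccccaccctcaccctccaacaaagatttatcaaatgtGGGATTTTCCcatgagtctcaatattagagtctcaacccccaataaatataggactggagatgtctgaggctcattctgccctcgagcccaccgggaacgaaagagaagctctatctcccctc
IL7R, chr5:35856641-35856940, plus strand: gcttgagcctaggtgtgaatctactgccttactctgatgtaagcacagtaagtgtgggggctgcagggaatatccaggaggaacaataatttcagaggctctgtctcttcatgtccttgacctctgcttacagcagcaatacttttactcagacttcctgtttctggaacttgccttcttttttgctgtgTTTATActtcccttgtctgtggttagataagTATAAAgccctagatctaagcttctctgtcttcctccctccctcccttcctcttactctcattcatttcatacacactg
NF-κB matches began at -177 and -122 in CXCL10, at -76 in CXCL11 and at -73 in IL6, counted from the start site. The IL7R promoter had matches at -60 and -29 to the TATA box and 0 to the NF-κB motif. Of all 27305 promoters, 10.8% held the NF-κB motif, 7.76% AP-1, 7.88% STAT, 12% the TATA box and 3.65% the interferon-response motif. Of the 34 members, 9, 8, 5, 7 and 2 held them. A match to these letters is a description and not evidence of binding.

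HDAC inhibition raised another group of ligands and receptors, most of them scarce in the control. IL1A, an alarmin of the IL1 family, had 4 counts in both control libraries, 36 and 46 with romidepsin, 117 and 105 with quisinostat, and 3 and 0 with mivebresib. The log2 FC was 3.25 with romidepsin (SE 0.48, adjusted p = 0.00173) and 4.57 with quisinostat (SE 0.43, adjusted p = 5.53e-05). With mivebresib IL1A was 2.64-fold lower than the control, with a counting interval of 0.635 to 15.5 that includes no change. IL24, a cytokine of the IL10 family, had 97 and 77 counts in the control, 369 and 470 with romidepsin, 225 and 197 with quisinostat, and 60 and 57 with mivebresib. It rose by 2.20 with romidepsin (SE 0.17, adjusted p = 0.000114) and 1.10 with quisinostat (SE 0.18, adjusted p = 0.000994) on the log2 scale, and its log2 FC with mivebresib was -0.56 (adjusted p = 0.0513).

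IL6 rose with both HDAC inhibitors, by 1.15 with romidepsin (SE 0.20, adjusted p = 0.00379) and 0.80 with quisinostat (SE 0.20, adjusted p = 0.0107). Without quisinostat replicate 1 the latter adjusted p was 0.0664. IL6 and IL17RC were the 2 members that rose with both HDAC inhibitors and fell with mivebresib, IL17RC with log2 FCs of 0.30, 0.34 and -0.72. The rise of IL17RC with romidepsin was lost without control replicate 1 or any romidepsin or mivebresib library (adjusted p up to 0.174), and that with quisinostat without quisinostat replicate 2 (adjusted p = 0.0901). IL15, a growth factor of NK and T cells, had 6 and 12 counts in the control, 13 and 20 with romidepsin, 39 and 28 with quisinostat, and 18 and 23 with mivebresib. It rose with quisinostat (log2 FC 1.70, SE 0.42, adjusted p = 0.00939), a call lost without control replicate 1 or quisinostat replicate 1 (adjusted p = 0.0501 and 0.0694). Without control replicate 2 the log2 FC of IL15 was 2.29.

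Of the chemokines, CXCL12 (chr10:44370165-44386493, minus strand), the ligand of CXCR4, had 14 and 11 counts in the control, 30 and 29 with romidepsin, 152 and 144 with quisinostat, and 17 and 16 with mivebresib. The quisinostat libraries stood apart from all others, with a log2 FC of 3.37 (SE 0.22, adjusted p = 8.12e-06), and the log2 FC with romidepsin was 1.17 (SE 0.26, adjusted p = 0.0113, and 0.0593 without romidepsin replicate 1). CXCL14, expressed in many epithelia, had 205 and 197 counts with quisinostat against 42 and 39 with romidepsin and 34 and 28 in the control, and its log2 FC was 2.51 with quisinostat (SE 0.18, adjusted p = 1.33e-05). SLC25A48, which covers 3.95% of the exon length of CXCL14 on the opposite strand, had 1 and 0 counts in the control and a log2 FC of 4.33 with quisinostat (adjusted p = 0.0162). CXCL8 had 198 and 210 counts in the control and 541 and 476 with romidepsin, where it rose by 1.25 on the log2 scale (SE 0.12, adjusted p = 0.000218). With quisinostat it had 305 and 274 counts (log2 FC 0.32, adjusted p = 0.0506) and with mivebresib 172 and 162 (log2 FC -0.28, adjusted p = 0.106).

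**Figure D3:**
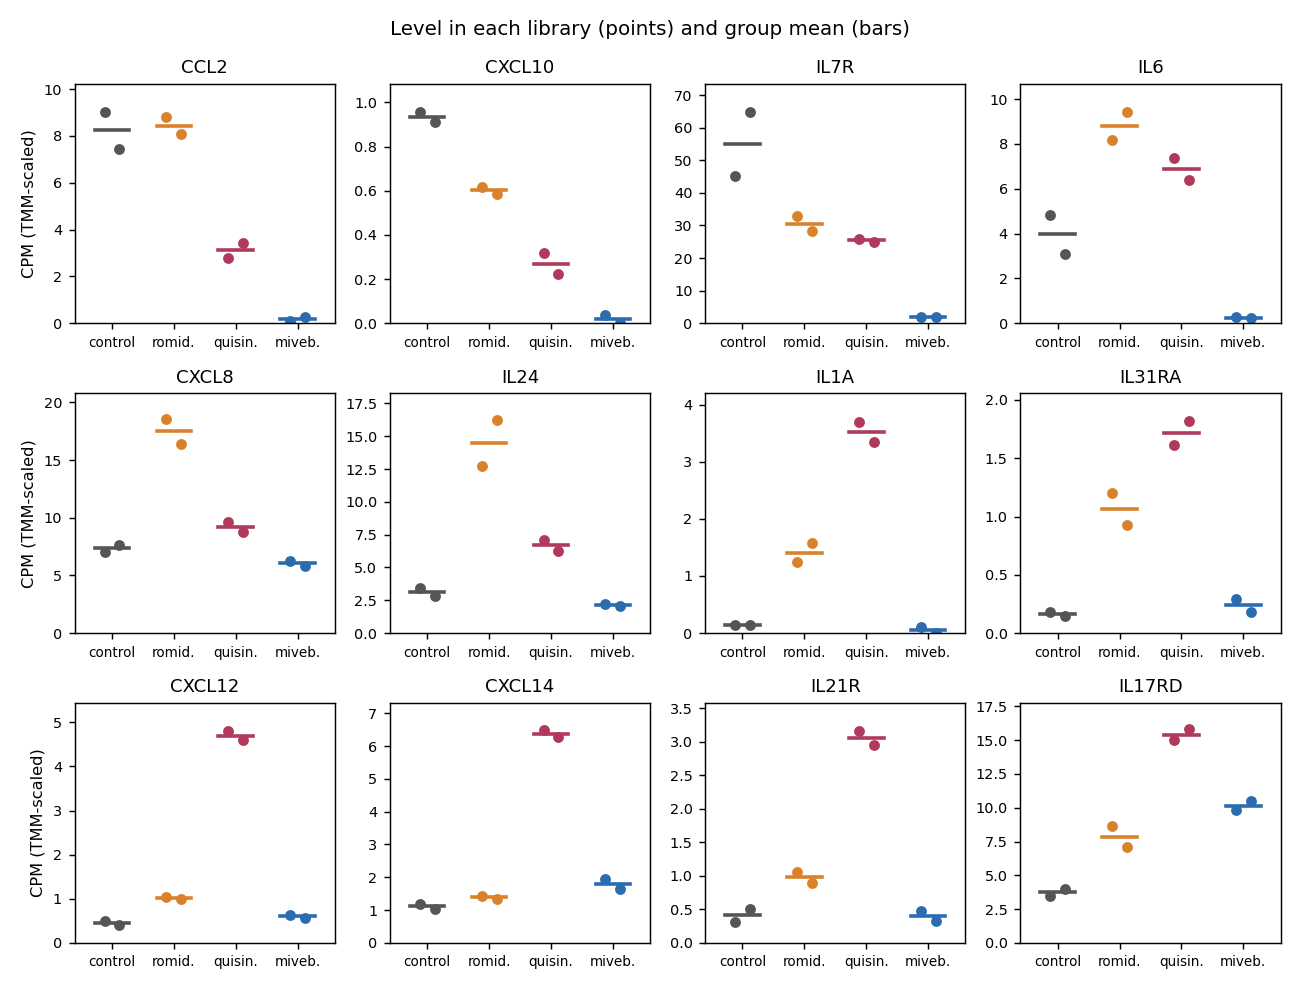
CPM with TMM scaling of 12 members in each library. Points are libraries, short bars are group means (n = 2), each vertical axis is linear and starts at 0, and the groups on the horizontal axis are the control, romidepsin, quisinostat and mivebresib. CCL2, CXCL10, IL7R and IL6 are near 0 with mivebresib, CXCL8 and IL24 are highest with romidepsin, and IL1A, CXCL12, CXCL14, IL21R and IL17RD are highest with quisinostat.

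Of the interleukin receptors, 6 of 21 tested rose with romidepsin and 10 of 21 with quisinostat, against 15.2% and 28% of all genes, and of the interleukins 4 of 12 and 5 of 12. IL31RA, the receptor chain for the itch cytokine IL31, had 5 and 4 counts in the control, 35 and 27 with romidepsin, 51 and 57 with quisinostat, and 8 and 5 with mivebresib. Its log2 FC was 2.69 with romidepsin (SE 0.39, adjusted p = 0.00164) and 3.37 with quisinostat (SE 0.37, adjusted p = 0.000121). IL21R had 9 and 14 counts in the control, 31 and 26 with romidepsin, 100 and 93 with quisinostat, and 13 and 9 with mivebresib. It rose by 2.87 with quisinostat (SE 0.29, adjusted p = 8.43e-05) and by 1.23 with romidepsin (SE 0.33, adjusted p = 0.0245), the latter call being lost without control replicate 1, either romidepsin library or quisinostat replicate 1 (adjusted p up to 0.128). An antisense transcript, IL21R-AS1, covers 23.3% of its exon length and was not tested. IL21R lies 37383 bp from IL4R on the same strand of chromosome 16, and IL4R did not pass the test with either HDAC inhibitor (log2 FC -0.07 and -0.16).

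IL10RA, the ligand-binding chain of the IL10 receptor, had 0 counts in both control libraries, 10 in both romidepsin libraries, 58 and 63 with quisinostat, and 18 and 17 with mivebresib. It was at least 3.19-fold higher with romidepsin, 17.8-fold with quisinostat and 5.88-fold with mivebresib (adjusted p = 0.0026, 3.26e-05 and 0.000337). IL17RD had 251 and 206 counts with romidepsin and 474 and 497 with quisinostat, with log2 FCs of 1.07 and 2.04 (SE 0.14 for both, adjusted p = 0.00108 and 9.76e-06). IL10RA and IL17RD were the 2 members that rose with all 3 drugs. IL12RB2, the signaling chain of the IL12 receptor, had 4 and 10 counts in the control, 28 in both romidepsin libraries, 25 and 28 with quisinostat, and 10 and 17 with mivebresib. Its log2 FC was 1.92 with romidepsin and 1.72 with quisinostat (adjusted p = 0.0136 and 0.0121). The call with romidepsin was lost without control replicate 1 or either romidepsin library (adjusted p up to 0.0634), that with quisinostat without control replicate 1 or quisinostat replicate 2 (adjusted p = 0.0701 and 0.0661), and the log2 FCs were 2.73 and 2.53 without control replicate 2.

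Quisinostat also raised IL1RL1, the receptor of IL33, by 1.42 on the log2 scale (SE 0.30, adjusted p = 0.00393) and the chemokine receptor CXCR4 by 0.84 (SE 0.21, adjusted p = 0.00948, and 0.0883 without quisinostat replicate 2). IL1R1, the signaling receptor for IL1A, rose by 0.52 (SE 0.085, adjusted p = 0.00107). IL3RA rose by 0.90 and IL11RA by 0.37 (adjusted p = 0.0414 and 0.0485), and both calls were lost without any control, romidepsin or quisinostat library (adjusted p up to 0.155 and 0.17). GALT, which covers 7.82% of the exon length of IL11RA on the same strand, rose by 0.41 on the log2 scale (adjusted p = 0.00789), and its part in the result was not tested. Markers of other cell types moved with the HDAC inhibitors: the summed CPM of 5 endothelial markers was 0.638 to 0.986 in the control, 3.03 to 3.57 with romidepsin and 5.16 to 5.83 with quisinostat, mostly from KDR, while CDH5 stayed at 0 counts. That of 6 fibroblast markers was 1.98 to 2.48, 4.24 to 5.46 and 8.44 to 10.9, mostly from COL1A1, while LUM did not exceed 1 count. Of the melanocytic markers, 3 of 7 fell with quisinostat, namely MITF, MLANA and SOX10 (log2 FC -1.39, -1.05 and -0.92), and 1, SOX10, with romidepsin (-0.39). The part of these markers in the results was not tested.

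Promoters of 3 genes that rose with quisinostat are shown beside those that fell with mivebresib, from the same source and with the same capitals. IL1A and CXCL12 rose with romidepsin too, whereas CXCL14 did not and also rose with mivebresib.
IL1A, chr2:112784444-112784743, minus strand: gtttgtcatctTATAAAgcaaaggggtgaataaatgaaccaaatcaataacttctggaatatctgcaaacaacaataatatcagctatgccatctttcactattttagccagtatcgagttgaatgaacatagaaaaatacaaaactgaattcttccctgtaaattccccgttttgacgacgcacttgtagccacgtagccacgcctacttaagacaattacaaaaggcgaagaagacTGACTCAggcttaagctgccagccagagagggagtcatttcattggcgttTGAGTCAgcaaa
CXCL12, chr10:44385048-44385347, minus strand: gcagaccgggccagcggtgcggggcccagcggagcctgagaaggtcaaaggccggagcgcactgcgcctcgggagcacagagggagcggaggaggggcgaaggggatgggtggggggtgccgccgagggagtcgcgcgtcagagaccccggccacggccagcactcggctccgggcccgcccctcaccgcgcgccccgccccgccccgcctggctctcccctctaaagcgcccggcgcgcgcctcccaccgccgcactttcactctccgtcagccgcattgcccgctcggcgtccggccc
CXCL14, chr5:135578942-135579241, minus strand: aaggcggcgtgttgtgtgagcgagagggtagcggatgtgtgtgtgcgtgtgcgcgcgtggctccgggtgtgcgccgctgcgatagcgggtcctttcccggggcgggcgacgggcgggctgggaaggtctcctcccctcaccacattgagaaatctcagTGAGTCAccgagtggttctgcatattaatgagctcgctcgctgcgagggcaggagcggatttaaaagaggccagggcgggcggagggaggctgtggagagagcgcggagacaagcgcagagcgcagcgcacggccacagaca
IL1A held AP-1 matches that began at -12 and 39 and a TATA box match at -239, CXCL14 held an AP-1 match at -92, and CXCL12 held 0 matches to the 5 motifs. The ratio of observed to expected CpG was 0.68 in IL1A, 0.879 in CXCL12 and 1.05 in CXCL14, and 0.234 in CXCL10, 0 in CXCL11, 0.405 in IL6 and 0 in IL7R. The ratio did not separate the members by direction, since it was 0.219 in IL10RA, 0.105 in IL21R and 0.214 in IL24, which rose with both HDAC inhibitors, and 0.918 in IL4R and 0.882 in IL6R, which fell with mivebresib. The median was 0.58 over all promoters and 0.378 over the 34 members.

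HDAC inhibition also lowered members. IL7R fell with both, by 0.85 with romidepsin (SE 0.16, adjusted p = 0.00464) and 1.11 with quisinostat (SE 0.16, adjusted p = 0.000498). IL17RE, the receptor chain for the epithelial cytokine IL17C, had 74 and 62 counts in the control, 32 and 35 with romidepsin, 17 and 29 with quisinostat, and 26 and 23 with mivebresib. All drug libraries lay below the control, with log2 FCs of -1.08, -1.74 and -1.46 (adjusted p = 0.017, 0.00106 and 0.00311), though the call with romidepsin was lost without control replicate 1 or either romidepsin library (adjusted p up to 0.103). IL7R and IL17RE were the 2 members that fell with all 3 drugs. IL17RE ends 671 bp before IL17RC on the same strand of chromosome 3, and the pair moved in opposite directions with both HDAC inhibitors. CCL28 fell by 0.59 with romidepsin (SE 0.11, adjusted p = 0.00422).

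Quisinostat lowered CCL2 by 1.40 on the log2 scale (SE 0.20, adjusted p = 0.000491) and CXCL10 by 1.78 (SE 0.39, adjusted p = 0.00504, and 0.0585 without quisinostat replicate 2). It also lowered IL6R by 1.26 (SE 0.14, adjusted p = 0.000115), and IL16 and IL32 by 0.91 and 0.59 (adjusted p = 0.0116 and 0.0055). The call of IL16 was lost without quisinostat replicate 2 (adjusted p = 0.0832). STARD5, which covers 36% of the exon length of IL16 on the opposite strand, rose by 1.60 with quisinostat (adjusted p = 0.000423). CCR10 rose with romidepsin (log2 FC 0.63, SE 0.17, adjusted p = 0.0252) and fell with quisinostat (log2 FC -0.88, SE 0.19, adjusted p = 0.00442). Its rise was lost without control replicate 1 or either romidepsin library (adjusted p up to 0.118). In DESeq2 the calls of CCR10, IL17RC and IL21R with romidepsin and of IL3RA and IL11RA with quisinostat were also lost, with adjusted p from 0.0514 to 0.153.

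The HDAC inhibitors were given at the same concentration and time, so they were compared directly. The paper found romidepsin to be the more potent of them in these cells, so the values compare the conditions as they were set. Romidepsin is a cyclic depsipeptide whose thiol binds the zinc of the enzyme, and quisinostat is a hydroxamic acid. Of the 48 tested members, 9 were higher and 5 lower with quisinostat than with romidepsin, against 21% and 14.6% of all genes (28.6% and 8.6% when libraries were scaled by their size alone, with 11 and 5 members). More members were lower without control replicate 1, and so was a larger share of all genes. With a log2 difference beyond 1.5, 4 were higher and 1 lower, against 5.41% and 0.179% of all genes. The largest differences were those of IL10RA (log2 2.47, 95% interval 1.78 to 3.16), CXCL12 (2.21, 1.77 to 2.65) and CXCL14 (2.19, 1.79 to 2.59), with adjusted p = 0.00087, 0.000143 and 0.00011. IL21R differed by 1.64 (1.06 to 2.22), IL1A by 1.32 (0.64 to 1.99), IL17RD by 0.97 (0.68 to 1.26) and IL1R1 by 0.54 (0.35 to 0.74). CXCR4 and CCL28 were higher by 0.68 and 0.33 (adjusted p = 0.0327 and 0.0407). Leaving out a romidepsin or quisinostat library could end the calls of IL1A, CXCR4 and CCL28 (adjusted p up to 0.0834, 0.263 and 0.262), and CCL28 also without either mivebresib library. Those of CXCR4 and CCL28 were lost in DESeq2 (adjusted p = 0.0543 and 0.0699).

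Levels were lower with quisinostat for CCR10 (log2 -1.51, 95% interval -1.93 to -1.10), CCL2 (-1.44, -1.89 to -0.99), IL6R (-1.12, -1.43 to -0.81), IL24 (-1.11, -1.46 to -0.75) and CXCL8 (-0.93, -1.19 to -0.67), with adjusted p between 0.00056 and 0.00118. CCL2 was at 256 and 235 counts with romidepsin, with a log2 FC of 0.03 against the control (95% interval -0.39 to 0.45). The fall of CCL2 with quisinostat was therefore also a difference between the drugs at the concentrations used. For several members the drugs were not told apart. IL6 differed by -0.35 (-0.79 to 0.08), IL31RA by 0.68 (0.08 to 1.29, adjusted p = 0.0778), IL12RB2 by -0.19 (-1.02 to 0.63), IL7R by -0.26 (-0.63 to 0.10) and IL17RC by 0.04 (-0.15 to 0.23). The interval of IL17RC is narrow, whereas that of IL12RB2 allows a difference of 1.02 on the log2 scale.

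**Figure D4:**
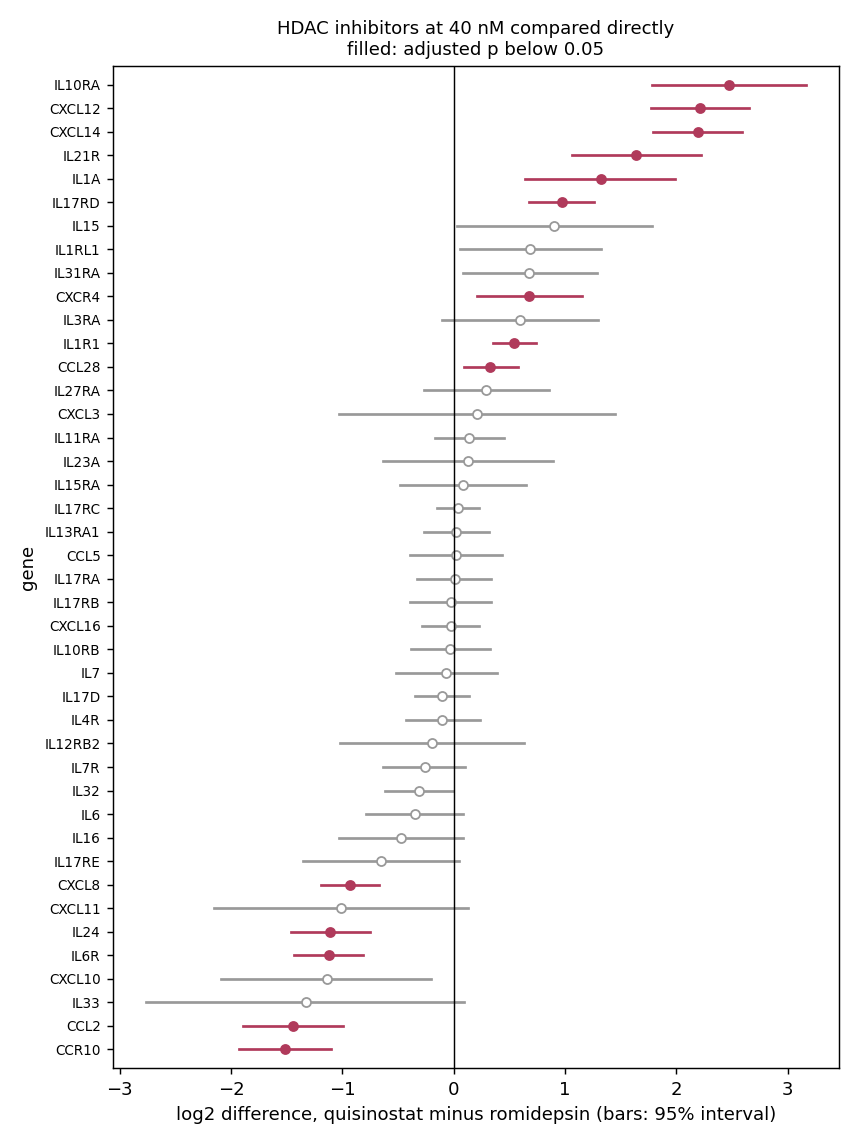
Log2 difference between quisinostat and romidepsin for the 42 members, ordered by size. Points are fitted differences, bars are 95% intervals, and filled points have an adjusted p below 0.05. IL10RA, CXCL12 and CXCL14 lie above a log2 difference of 2 and CCR10 and CCL2 lie lowest, while IL13RA1, CCL5 and IL17RA lie at 0.02 or less from 0.

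Mivebresib has another target and was given at another dose than the HDAC inhibitors, so its values against theirs compare the conditions as they were set. Of the tested members, 24 were lower and 2 higher with mivebresib than with romidepsin, against 25.2% and 23.7% of all genes. Against quisinostat 28 were lower and 1 higher, where 31.5% and 26.2% of all genes were. With libraries scaled by size alone, 39.4% and 16.9% of all genes and 33 and 0 members were called against quisinostat. With a log2 difference beyond 1.5, 13 members were lower and 0 higher than with romidepsin, against 6.7% and 2.52% of all genes, and 15 and 0 than with quisinostat, against 12.6% and 1.73%. The higher members were IL17RD and IL1R1 against romidepsin (log2 0.37 and 0.29) and IL16 against quisinostat (0.68). The count against romidepsin fell to 1 without romidepsin replicate 1 and to 0 without romidepsin replicate 2 or any quisinostat or mivebresib library, and that against quisinostat to 0 without any romidepsin or quisinostat library or mivebresib replicate 2. CXCL8, CXCR4, IL24 and IL27RA did not pass the test between mivebresib and the control but were lower with mivebresib than with either HDAC inhibitor. The same held for CXCL12, IL1A, IL21R and IL31RA. The difference of CXCL12 from romidepsin was lost in DESeq2 (adjusted p = 0.152), and that of IL21R without romidepsin replicate 1 or mivebresib replicate 2. For IL24 the difference was -2.76 against romidepsin and -1.66 against quisinostat (adjusted p = 1.04e-05 and 0.000116), and for CXCL8 it was -1.53 and -0.60 (adjusted p = 2.56e-05 and 0.00315). CXCR4 differed by -0.77 and -1.45 (adjusted p = 0.0221 and 0.000598), and IL27RA by -1.02 and -1.32 (adjusted p = 0.0161 and 0.00334). The first of these was lost for CXCR4 without romidepsin replicate 1 or mivebresib replicate 1 (adjusted p = 0.127 and 0.13), and for IL27RA without romidepsin replicate 2 or either mivebresib library (adjusted p up to 0.0876). IL1A was 64.8-fold lower with mivebresib than with quisinostat, with a counting interval of 21.9 to 317.

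Ligands and their receptors did not always move in the same direction. CXCL12 and CXCR4 both rose with quisinostat. IL1A and IL1R1 also both rose with quisinostat, whereas with romidepsin IL1A rose and IL1R1 had a log2 FC of -0.02 (adjusted p = 0.849). CCL28 and CCR10 both fell with mivebresib, but with romidepsin CCL28 fell and CCR10 rose. IL6 and IL6R both fell with mivebresib, while with quisinostat IL6 rose and IL6R fell. IL7 and IL7R both fell with mivebresib, and with the HDAC inhibitors IL7R fell while IL7 had log2 FCs of 0.10 and 0.04. IL10RA rose with the 3 drugs while its partner chain IL10RB did not pass the test with any (log2 FC 0.03, 0.00 and -0.30).

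The members that did not pass the test between any drug and the control numbered 10 of 42. They were the chemokines CCL5 and CXCL3, the interleukins IL23A and IL33, and the receptors IL10RB, IL13RA1, IL15RA, IL17RA, IL17RB and IL27RA. The most abundant of them, IL13RA1, had log2 FCs of 0.04, 0.06 and -0.09, with 95% intervals within -0.39 to 0.36. IL33 ran from 1 to 22 counts and CXCL3 from 3 to 23, and the intervals of their log2 FCs were wide, from -3.14 to 2.17 for IL33 and from -2.66 to 2.37 for CXCL3.

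Other components of the cytokine pathways were taken from a list of 77 genes, of which 58 were tested. With romidepsin 10 rose and 9 fell, with quisinostat 13 rose and 17 fell, and with mivebresib 8 rose and 22 fell, where 15.2% and 15.8%, 28% and 25.1%, and 22.2% and 24.1% of all genes did. The median log2 FC over the list was 0.10, -0.09 and -0.06, and that of all genes -0.012, -0.004 and 0.007. Of the genes past both thresholds, TSLP, the epithelial cytokine that binds IL7R together with CRLF2, rose with both HDAC inhibitors from a mean of 0.0714 CPM (log2 FC 3.25 and 4.10, adjusted p = 0.00808 and 0.000705). That control level is near the floor, so the size of its rise is uncertain. CNTFR also rose beyond 1.5 with quisinostat (log2 FC 1.66, adjusted p = 0.000823). CLCF1, a cytokine of the IL6 family, fell with quisinostat (log2 FC -1.85, adjusted p = 1.88e-05). With mivebresib SOCS1, an inhibitor of JAK kinases, rose (log2 FC 2.47, adjusted p = 0.00675), while SOCS2 and SOCS3, of the same family, fell (log2 FC -1.87 and -1.74, adjusted p = 5.61e-06 and 1.97e-05). LIF and CNTF, ligands of the IL6 family, fell with mivebresib (log2 FC -2.46 and -1.71, adjusted p = 0.000812 and 1.88e-05). So did the macrophage growth factor CSF1 (log2 FC -2.34, adjusted p = 1.06e-05) and CASP1, the protease that activates IL1 family cytokines (log2 FC -2.46, adjusted p = 8.52e-05). ACKR3, the scavenging receptor of CXCL12, had 0 CPM in the control and a mean of 0.397 CPM with quisinostat, and CRLF2 a mean of 0.307 CPM in the control and 0 with mivebresib.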

How the data were processed

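RNA from 8 MP38 wells was sequenced as paired ends. Read counts by gene symbol, which the authors made with no normalization, were used as deposited. The labels name the build hg38; the aligner, annotation and use of strand in counting are not given in the sources used here, so genes overlapping on opposite strands are uncertain. The authors' log CPM and quantile-normalized tables of the same libraries were not used.

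Groups came from the sample labels. Counts were fitted with edgeR 4.0.16 in R 4.3.3 (filterByExpr by group, TMM factors, quasi-likelihood test, 1 model of 8 libraries), which left 15085 genes and a biological coefficient of variation of 0.0938. SE is the log2 FC divided by the square root of F. A group with at most 3 counts in each library gave a bound (0 counts) or a ratio with an exact 95% interval. The procedure was tested on simulated data first. Both the 2 libraries per group and, for members with few counts, counting error limit the precision.

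The members, lists and alternatives were chosen with earlier results of these data known. Only members with at least 20 counts in a library were named, with values in every library for those at Adj. p below 0.05 and a log2 FC beyond 1.5 with a drug; the others have values where abundant or past the test. Alternatives were DESeq2 1.42.0, limma-voom (limma 3.58.1), other scaling and filters, fits of only the 4 libraries compared, a block for replicate number, and leaving out each library. Exon lengths came from GENCODE 29 and promoters from RefSeq on GRCh38.p14, read with Python 3.11.15 and pandas 2.3.3, and figures were drawn with matplotlib 3.10.9.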

Additional observations from a re-analysis of the deposited data

How the results depend on the processing

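Over the 125 calls of named members in the 6 comparisons, 0 of 1974 values from the alternative fits changed direction, 1801 stayed past the test and 173 did not, with the cause not tested. The calls were picked for passing the main fit and the alternatives reuse the same libraries, so their agreement in direction is not independent support. With a log2 FC beyond 1.5, 6 members were higher and 0 lower with romidepsin, 10 and 2 with quisinostat, 1 and 7 with mivebresib, 4 and 1 with quisinostat against romidepsin, 0 and 13 with mivebresib against romidepsin, and 0 and 15 against quisinostat. In fits of the 4 libraries compared, 8 members were higher with romidepsin and 2 with mivebresib, against 10.1% and 17.7% of all genes. In such fits 9 were lower with quisinostat than with romidepsin, against 24% of all genes. For mivebresib, 2 members were higher in DESeq2 and 3 with a mean CPM of at least 1, against 18.4% and 25.3% of all genes. Against romidepsin, the 2 higher members became 0 in DESeq2 and 1 with library size alone, upper-quartile factors or no filter. Of all genes, 19.1%, 20.8%, 21.6% and 14.4% were higher in these fits. Against quisinostat, the 1 higher member became 0 in DESeq2, with library size alone and with upper-quartile factors, where 22.5%, 16.9% and 21.6% of all genes were higher.

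Leaving out 1 library gave 7 to 13 members higher and 2 to 4 lower with romidepsin, 13 to 20 and 6 to 10 with quisinostat, 2 to 4 and 14 to 21 with mivebresib, 6 to 9 and 5 to 8 for quisinostat against romidepsin, 0 to 2 and 18 to 29 for mivebresib against romidepsin, and 0 to 1 and 23 to 30 against quisinostat; the lone library is then assumed to vary like the other groups. Against the control, 9 of 15 named calls with romidepsin, 16 of 25 with quisinostat and 16 of 20 with mivebresib held whichever library was left out.

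The deviations of same-numbered libraries had correlations of -0.162 to 0.158 between groups. With 2 libraries per group, these values cannot exclude that the numbers pair the libraries. With the replicate block, 13 members were higher and 3 lower with romidepsin, against 14.8% and 15.3% of all genes. With quisinostat 17 and 8 were, against 27.8% and 24.9%, and with mivebresib 4 and 15, against 22% and 23.9%. Under that block 1 member was higher with mivebresib than with romidepsin and 0 than with quisinostat, against 2 and 1 without it. Of all genes, 23.3% and 26.1% were higher under the block.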
